A study of Mus musculus with 18 samples.

Results

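Translation initiation factors (gene symbols starting with Eif) and elongation factors (symbols starting with Eef) were compared between RNA pulled down with tagged endothelial ribosomes and whole-tissue RNA in mouse brain, retina and choroid. The members were all rows of the 3 deposited tables whose symbol starts with either prefix. They numbered 60 of 13957 listed genes in Brain, 59 of 12827 in Retina and 50 of 7569 in Choroid, and 50 were listed in all 3 tables. Eif4ebp1 was listed in Brain only. Choroid also lacked Eif2d, Eif2b3, Eif2b4, Eif4enif1, Eif4ebp2, Eif4ebp3, Eif5a2, Eef1e1 and Eefsec, which were therefore not analysed there.

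Initiation factors bring the small ribosomal subunit and the initiator tRNA to an mRNA. eIF4 proteins bind and unwind the capped 5′ end, eIF3 holds the assembly together, eIF1 and eIF1A govern start codon choice, and eIF2 carries the initiator tRNA. Phosphorylation of eIF2 by its kinases, and capture of the cap-binding protein by the eIF4E-binding proteins, are the classic brakes on this step. During elongation eEF1A delivers each aminoacyl-tRNA, the eEF1B subunits reload eEF1A with GTP, and eEF2 moves the ribosome along. In neurons and muscle, eEF1A2 replaces much of the eEF1A1 found elsewhere.

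All libraries came from Tam-induced mice of the genotype Cdh5(PAC)-cre/ERT2+; NuTRAP+, so Input and Positive groups share the alleles and the induction. The recombinase is driven by the promoter of Cdh5, the gene of vascular endothelial cadherin, and recombined cells put GFP on their ribosomes. Input was supernatant set aside before the pull-down, and Positive was the RNA bound to the anti-GFP beads. The 6 groups (Brain, Retina and Choroid, each Input and Positive) held 3 libraries each. The number of animals behind each library is not given in the sources used here, nor are age and sex, and the p-values therefore reflect only how far these libraries spread, which may be technical. Levels are normalised counts (CPM, relative to the listed genes' total) after TMM scaling within a tissue's table. In such bulk samples fewer cells of a type and less RNA per cell cannot be told apart.

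Listed genes summed to 28128866 to 43219831 estimated counts per library in Brain, 12325658 to 36157140 in Retina and 713733 to 10031274 in Choroid, where Positive 2 was the shallowest. The summed level of 10 endothelial markers was 142 to 170 CPM in Brain Input and 4732 to 5258 in Brain Positive, 192 to 227 and 2320 to 4572 in Retina, and 1522 to 2628 and 14056 to 16589 in Choroid. Retina Positive 3 (4572) stood apart from Retina Positive 1 and 2 (2320 and 2448). Markers of other cells remained in the Positive fractions, though many were lower there than in Input. The 8 neuronal markers summed to 7862 to 8505 CPM in Brain Input and 3241 to 3684 in Brain Positive, where 8 of 8 were lower. In Retina they summed to 5973 to 6491 CPM in Input and 4799 to 6439 in Positive, where 5 of 8 were lower. The 8 photoreceptor markers summed to 34593 to 42743 CPM in Retina Input and 30206 to 49744 in Retina Positive, with 3 of 8 lower. The 4 fibroblast markers were higher in Brain Positive (800 to 1114 CPM) than in Brain Input (80.0 to 84.1). In Choroid 3 of 3 pigment epithelium, 3 of 3 melanocyte, 4 of 4 fibroblast and 5 of 6 photoreceptor markers were lower in Positive. Of the 2 oligodendrocyte markers listed in Choroid 0 were lower. The part of these markers in the results below was not tested.

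Promoter windows from RefSeq (GRCm38.p6, 250 bases before to 50 after the start) were found for 48 of the 60 members. The core of the interferon-stimulated response element (a pair of GAAA with any 2 bases between them) was present on either strand in 4 of the 48 (8.33%), against 3.99% of 27025 genes with a window. CCGGAAGT, a motif bound by ETS factors, was present in 9 of 48 (18.8%, against 4.31% of all genes), and GGGCGG in 36 of 48 (75%, against 38.2%). A gene was counted if any of its starts held the motif, so genes with more starts had more chances. The 27025 genes include genes not listed in these data, so they are not matched to the members. The 3 windows below are shown because Eif2ak2 gave one of the largest differences in these data, and because Eif5a and Eif5a2, related genes that went in opposite directions in Brain, both hold CCGGAAGT. Each runs 5′ to 3′ from 120 bases before to 30 after the start, and capitals mark the motif. The motif lies at bases 19 to 28 after the start in Eif2ak2 (chr17:78882543-78882692, minus strand), at -55 to -48 in Eif5a (chr11:69920601-69920750, minus strand, 1 of 6 starts in the table) and at -36 to -29 in Eif5a2 (chr3:28781157-28781306, plus strand).
Eif2ak2: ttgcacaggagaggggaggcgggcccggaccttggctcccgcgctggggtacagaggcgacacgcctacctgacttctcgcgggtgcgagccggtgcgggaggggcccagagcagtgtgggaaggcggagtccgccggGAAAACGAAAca
Eif5a: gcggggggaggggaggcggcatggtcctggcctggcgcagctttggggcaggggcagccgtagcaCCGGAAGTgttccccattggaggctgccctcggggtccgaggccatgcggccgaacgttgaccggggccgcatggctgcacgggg
Eif5a2: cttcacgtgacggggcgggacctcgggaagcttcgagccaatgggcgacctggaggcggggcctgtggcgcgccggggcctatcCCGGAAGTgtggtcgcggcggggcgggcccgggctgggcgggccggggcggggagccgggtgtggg

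A match is only a match of letters. Of the 4 members with the interferon motif, Eif2ak2 (log2 difference 1.88) and Eif2s1 (0.39) were higher in Brain Positive, and Eif3a (0.10) and Eif2s3x (0.01) did not pass the test. Median log2 differences in Brain of members with and without a motif were 0.24 and 0.13 for CCGGAAGT, 0.12 and 0.40 for GGGCGG, and 0.24 and 0.15 for the interferon motif. TATAAA, the TATA box, was present in 4 of 48 windows (8.33%, against 15.7% of all genes), with medians of 0.44 and 0.13.

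Positive was set against Input in each tissue to see which factors were higher or lower in the pulled-down RNA than in the whole tissue. The pulled-down RNA also held the markers of other cells given above, so its levels are not those of endothelial ribosomes alone. In Brain 33 of 60 members were higher in Positive and 6 were lower, at a Benjamini-Hochberg adjusted p under 0.05 over all listed genes (edgeR's quasi-likelihood F test). Of all 13957 genes, 38.3% were higher and 39.7% lower. The median log2 difference (Positive over Input) was 0.28 over the members and -0.02 over all genes. With upper quartile scaling, which moved the median of all genes to -0.14, 30 members were higher and 9 lower.

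In Retina 7 of 59 members were higher and 1 was lower, where 15.3% of all genes were higher and 10.8% lower. The members' median was 0.05, against -0.03 for all genes. The 7 fell to 3 without Retina Input 1 or Retina Input 2, and to 4 without Retina Input 3, and the single lower call was lost without any of these 3 libraries or without Retina Positive 1 or 2. Without Retina Positive 3, 8 members were higher and 1 lower.

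In Choroid 9 of 50 members were higher and none was lower by edgeR's test, where 16.3% of all genes were higher and 20.2% lower. At an unadjusted p under 0.05, 15 were higher and 1 lower, and the DESeq2 Wald test gave 15 higher and 0 lower. The shares of all genes above do not apply to these counts, and matching shares are not given here. The members' median was 0.31, against -0.01 for all genes. The 9 fell to 2 without Choroid Input 3, to 5 without Choroid Input 1 or 2 or without Choroid Positive 1 or 3, to 5 with upper quartile scaling and to 4 with the authors' factors. Eef1a2 was called lower without Choroid Input 3 or Choroid Positive 2, and 8 members were higher without the latter. Of the 50 members listed in Choroid, 13, among them Eef1a2, reached the authors' minimum of 50 raw counts in Input only and none in Positive only.

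**Figure D1:**
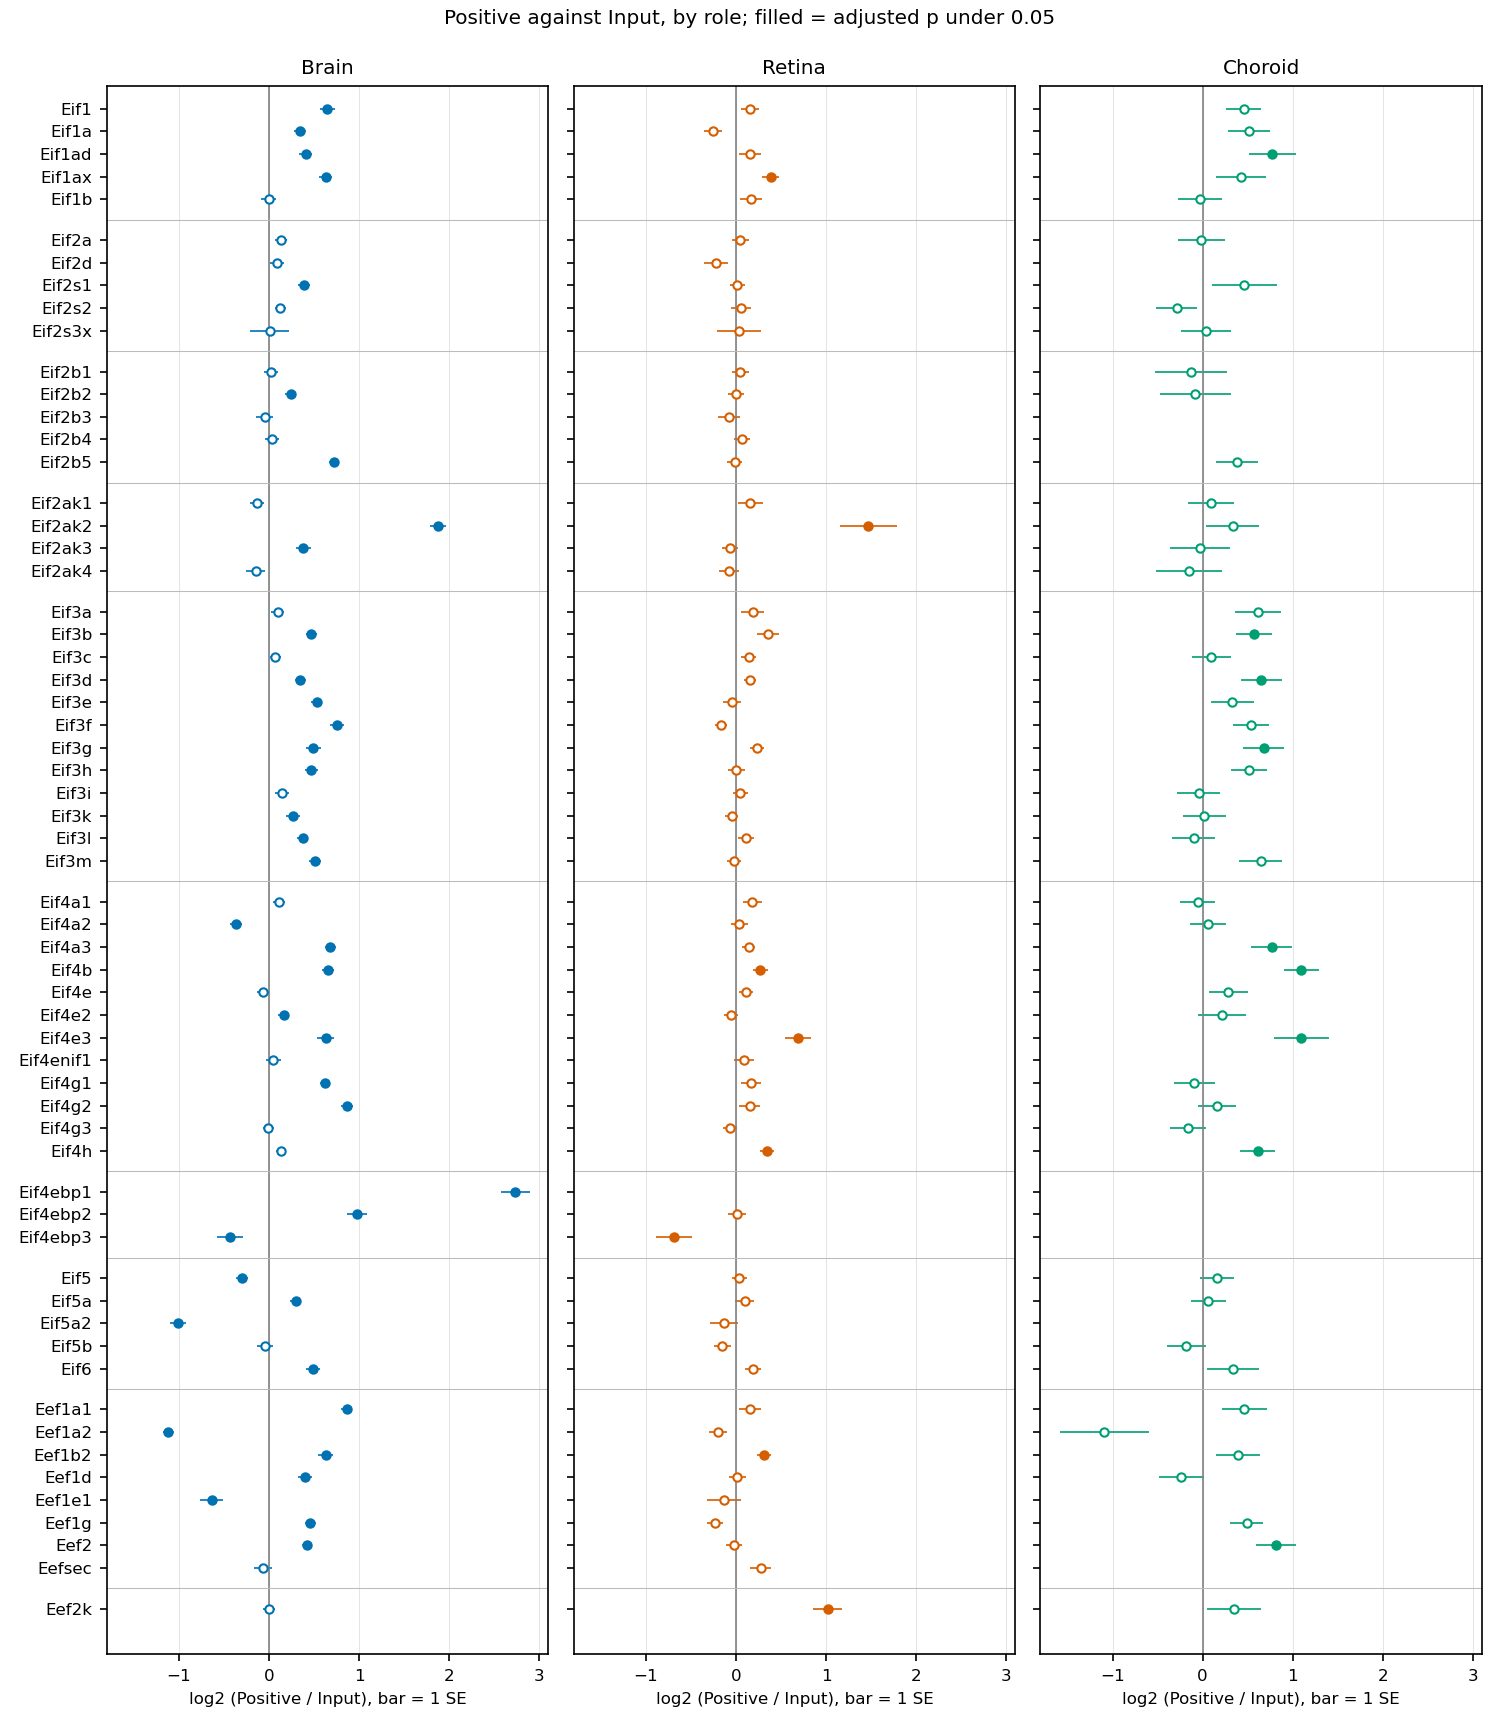
Log2 difference of Positive over Input for each member (rows, grouped by role, with bars of 1 SE) in Brain, Retina and Choroid. Filled points passed at adjusted p under 0.05. Brain has 39 filled points of 60, Retina 8 of 59 and Choroid 9 of 50, and Choroid bars are the widest.

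Start codon factors. In Brain 4 of the 5 were higher in Positive, in Retina 1 and in Choroid 1. Beside this and the counts by role below, the shares of all genes higher were 38.3% in Brain, 15.3% in Retina and 16.3% in Choroid. The shares lower were 39.7%, 10.8% and 20.2%. Eif1, the scanning factor that guards against wrong start codons, was 448, 387 and 381 CPM in Brain Input against 705, 598 and 602 in Brain Positive (log2 difference 0.65 ± 0.09 SE, adjusted p = 6.58e-05). All Brain Positive values lay above all Input values. Its close relative Eif1b was 147, 126 and 124 CPM in Brain Input and 141, 124 and 130 in Positive, with overlapping groups (adjusted p = 0.965).

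Per kilobase of exon, Eif1b made up 29.4% ± 0.15 (SD, n = 3) of the Eif1 and Eif1b total in Input and 21.0% ± 0.62 in Positive of Brain. Retina shares were 32.7% ± 0.62 and 32.7% ± 1.2, and those of Choroid 19.0% ± 1.5 and 14.3% ± 1.5. The exact permutation test of 3 against 3 cannot go below p = 0.1, which Brain and Choroid reached (Retina p = 0.9).

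Eif1a and Eif1ax encode versions of eIF1A, the second one from the X chromosome. Eif1ax was 35.8, 38.5 and 38.1 CPM in Brain Input against 62.5, 55.6 and 55.9 in Brain Positive (0.63 ± 0.07, adjusted p = 2.22e-05), and 42.9, 48.7 and 45.5 in Retina Input and 55.5, 62.1 and 61.7 in Retina Positive (0.39 ± 0.09, adjusted p = 0.0168). The groups did not overlap in either tissue. The Retina call was lost without Retina Input 1 (adjusted p = 0.0817) or Retina Input 3 (0.0581). In Choroid Eif1ax was 37.0, 54.0 and 46.4 in Input and 72.8, 62.1 and 48.7 in Positive, with overlap (adjusted p = 0.266).

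Eif1a was 44.0, 48.1 and 46.8 CPM in Brain Input against 60.7, 59.0 and 56.3 in Brain Positive (0.34 ± 0.07, adjusted p = 0.000941). It was 68.6, 79.6 and 84.4 in Retina Input and 65.0, 69.3 and 61.1 in Retina Positive (adjusted p = 0.102), and 49.3, 49.6 and 56.3 in Choroid Input and 74.2, 81.2 and 67.8 in Choroid Positive (adjusted p = 0.113). The Retina groups overlapped and the Choroid groups did not. Eif1ad, which encodes a protein with an eIF1A domain, was 37.0, 39.8 and 42.0 CPM in Choroid Input and 69.5, 76.4 and 58.6 in Choroid Positive (0.77 ± 0.26, adjusted p = 0.0337). This call had adjusted p of 0.0698 to 0.104 without Choroid Input 1, 2 or 3 or Choroid Positive 1.

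eIF2, its exchange factor and its kinases. Of the 5 eIF2 and initiator tRNA factors 1 passed edgeR's test, Eif2s1, the phosphorylated alpha subunit, in Brain (0.39 ± 0.07, adjusted p = 0.000392). Eif2s2, the beta subunit, was also called higher in Brain by the DESeq2 Wald test (adjusted p = 0.038) and by edgeR with DESeq2's size factors (0.0467), the authors' factors (0.0151) or a filter at the median level (0.044), and Eif2a with the authors' factors (0.0206). Of the 5 eIF2B subunits, which recharge eIF2 with GTP, Eif2b5 and Eif2b2 were higher in Brain and none passed in Retina or Choroid. Eif2b5, the catalytic epsilon subunit, was 72.1, 69.7 and 72 CPM in Brain Input against 114, 120 and 119 in Brain Positive (0.72 ± 0.06, adjusted p = 2.11e-06). The other 4 subunits had smaller log2 differences there, from -0.05 (Eif2b3, adjusted p = 0.644) to 0.24 (Eif2b2, 0.00644). The Eif2b2 call did not hold under every alternative.

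Eif2ak2 encodes PKR, the kinase activated by double-stranded RNA and a known interferon target. It was 10.1, 9.17 and 9.66 CPM in Brain Input against 38.2, 34.1 and 33.8 in Brain Positive, 3.67-fold higher (log2 1.88 ± 0.09, adjusted p = 4.67e-08). In Retina it was 10.8, 8.16 and 6.85 in Input and 16.2, 19.3 and 35.9 in Positive (1.47 ± 0.31, adjusted p = 0.0109). Groups did not overlap in either tissue, and the highest Retina value came from Positive 3, the library with the highest endothelial marker sum. Without Retina Positive 3 the Retina difference was 1.04 (adjusted p = 0.00352), and it missed the threshold without Retina Input 2 (0.0537) or Retina Input 3 (0.0517). In Choroid Eif2ak2 was 33.7, 62.8 and 45.6 in Input and 56.7, 60.5 and 60.9 in Positive, with overlap (0.33 ± 0.29, adjusted p = 0.41).

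The other kinases respond to haem and to stress of the endoplasmic reticulum and amino acid supply. Eif2ak3, the endoplasmic reticulum kinase PERK, was 30.5, 33.0 and 32.1 CPM in Brain Input against 40.3, 45.5 and 38.8 in Brain Positive (0.38 ± 0.08, adjusted p = 0.00175). It was 57.4, 53.8 and 50.7 and then 55.3, 50.4 and 49.5 in Retina, and 48.5, 48.6 and 83.3 and then 75, 66.8 and 37.1 in Choroid, with overlap in both. Eif2ak1, the haem-regulated kinase, was 81.5, 92.7 and 87.3 in Brain Input against 73.4, 85.3 and 79.5 in Brain Positive.

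Eif2ak1 was also 45.7, 43.5 and 41.4 CPM in Retina Input, 40.5, 46.3 and 59.3 in Retina Positive, 68.7, 59.4 and 74.9 in Choroid Input and 80.5, 84.3 and 53.9 in Choroid Positive. Eif2ak4, the amino acid sensor GCN2, was 23.2, 26.2 and 26.6 in Brain Input, 20.3, 22.0 and 26.2 in Brain Positive, 34.2, 35.3 and 32.1 in Retina Input and 32.0, 28.5 and 35.6 in Retina Positive. In Choroid it was 29.9, 25.5 and 19.8 in Input and 23.0, 20.7 and 23.2 in Positive. Neither Eif2ak1 nor Eif2ak4 passed in any tissue, with overlapping groups throughout.

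Eif2s3x, the X-linked gamma subunit of eIF2, divided libraries by their number. It was 81 CPM in Brain Input 1 against 143 and 153 in libraries 2 and 3. Brain Positive 1 had 99.1, against 138 and 142 in the other two. In Retina Input it was 137 in library 1 against 217 and 228, and in Retina Positive 137 against 236 and 224. In Choroid it was 139 against 173 and 200 in Input, and 106 against 223 and 204 in Positive. Library 1 was the lowest in all 6 groups, and Positive against Input passed in no tissue in edgeR's fits without a block (adjusted p from 0.933 to 0.98). Those fits count the spread between library numbers as error, so they say little about a small difference between fractions. The Y-linked Eif2s3y was not analysed here.

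The same libraries were the lowest for Ddx3x, an X-linked RNA helicase (ratios of library 1 to the mean of libraries 2 and 3 from 0.627 to 0.786), and for Kdm6a (0.513 to 0.679). The X-linked Eif1ax did not divide this way in every group. Library 1 was the highest in Brain Positive (ratio 1.12) and Choroid Positive (1.31) and the lowest in the other groups. Xist, listed in Retina only, was 0.477 CPM in Retina Input 1 against 619 and 698, and 4.31 in Retina Positive 1 against 192 and 310. The labels do not give sex. Without library 1 in every group 35 members were higher and 5 lower in Brain, 2 higher in Retina (Eif2ak2 and Eef2k) and 2 higher in Choroid (Eif4b and Eef2), with fewer libraries in each group.

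**Figure D2:**
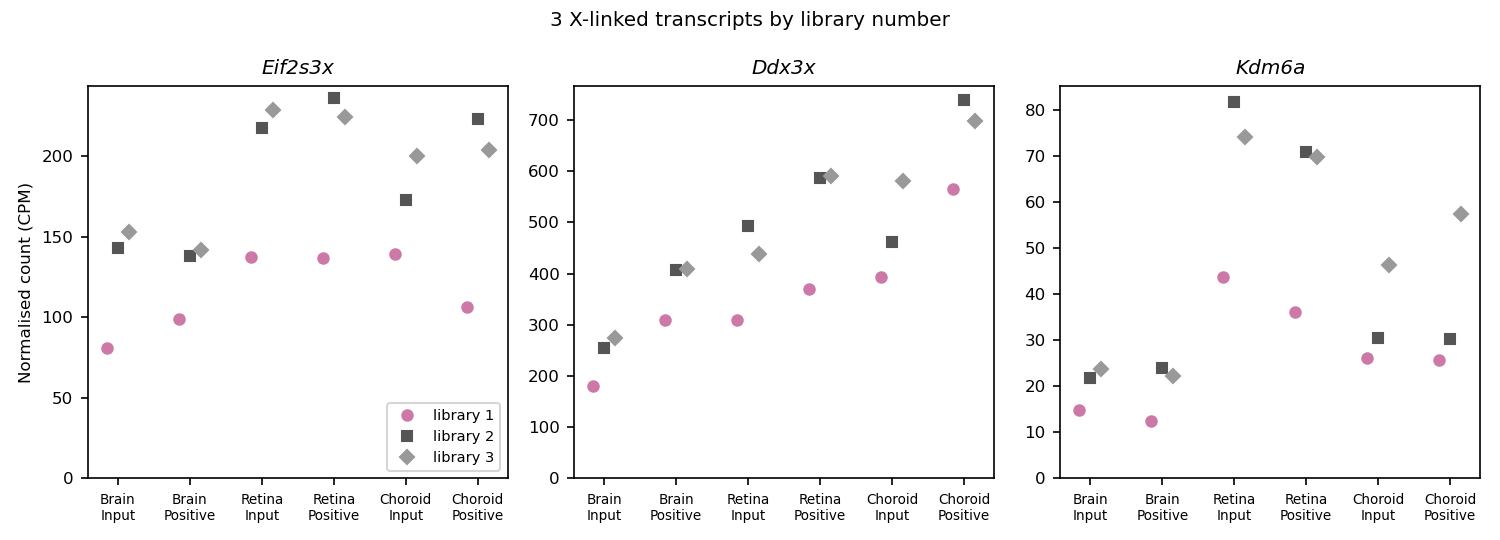
Normalised count (CPM) of Eif2s3x, Ddx3x and Kdm6a in each of the 18 libraries, by group. The circles, library 1 of each group, are the lowest of 3 in all 6 groups for the 3 genes.

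eIF3. In Brain 9 of the 12 listed subunits were higher in Positive and none was lower (38.3% and 39.7% of all genes), with a median log2 difference of 0.42. Of these 9 calls, that of Eif3k did not hold under every alternative. In Retina none passed by edgeR (0 of 12, median 0.08). At an unadjusted p under 0.05, 3 were higher and 1 lower, for which no share of all genes is given here. The DESeq2 Wald test called Eif3b and Eif3g higher. Eif3b (0.36, adjusted p = 0.0611) also passed in edgeR with paired libraries as a block (0.0444), without Retina Positive 1 (0.036) and with a filter at the median level (0.0499). Eif3g passed in edgeR without Retina Positive 3 (0.27, adjusted p = 0.0331). In Choroid 3 passed, all higher (median 0.52). Eif3f was 170, 145 and 147 CPM in Brain Input against 265, 252 and 260 in Brain Positive (0.75 ± 0.07, adjusted p = 7.17e-06). In Retina it was 194, 194 and 203 in Input and 178, 173 and 176 in Positive (-0.17 ± 0.07, adjusted p = 0.121). The groups did not overlap in either tissue and their order was opposite.

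The 3 subunits not passing in Brain were Eif3a (0.10), Eif3c (0.07) and Eif3i (0.15). Eif3a, the largest subunit, was 158, 184 and 186 CPM in Brain Input against 187, 188 and 190 in Brain Positive. In Choroid Eif3a was 317, 155 and 254 in Input and 418, 318 and 369 in Positive (0.61 ± 0.26, adjusted p = 0.0836), and it passed when same-numbered libraries were paired as a block (adjusted p = 0.0159) and without Choroid Input 1 (0.85, 0.0348). The block also brought Eif3f, Eif3h, Eef1g and Eef1a2 past the threshold in Choroid (adjusted p from 0.0079 to 0.0436), for 13 higher and 1 lower.

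The Choroid calls in eIF3 were Eif3g (0.68), Eif3d (0.65) and Eif3b (0.57), with adjusted p from 0.0364 to 0.0432. Each was lost without single libraries: Eif3b and Eif3g without Choroid Input 1 or 3 or Choroid Positive 1 or 3, Eif3b also without Choroid Input 2, and Eif3d without any of Choroid Input 1, 2 and 3 and Choroid Positive 2 and 3 (adjusted p from 0.0513 to 0.142). Per kilobase of exon, the subunits ranged in Brain Positive from 36.7 CPM (Eif3a) to 129 (Eif3h), and in Choroid Positive from 38.0 (Eif3l) to 201 (Eif3h).

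eIF4 cap binding, scaffold and helicase. In Brain 6 of 12 were higher and 1 lower, beside 38.3% and 39.7% of all genes. In Retina 3 of 12 were higher (15.3% of all genes), and in Choroid 4 of 11 (16.3% of all genes). Eif4b and Eif4e3 passed in all 3 tissues. Eif4b, a cofactor of the eIF4A helicase, was 219, 243 and 243 CPM in Brain Input against 369, 381 and 361 in Brain Positive (0.66 ± 0.06). It was 323, 342 and 345 in Retina Input and 390, 397 and 431 in Retina Positive (0.27 ± 0.08), and 310, 251 and 277 in Choroid Input and 630, 528 and 631 in Choroid Positive (1.10 ± 0.19, adjusted p = 0.000785). No groups overlapped. The Retina call (adjusted p = 0.0454) was lost with the block (0.0626) and had adjusted p of 0.0609 to 0.175 without any 1 of Retina Input 1, 2 and 3 and Retina Positive 2 and 3.

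Eif4e3 encodes a cap-binding relative of eIF4E. It was 18.9, 18 and 18.4 CPM in Brain Input against 31.7, 27.7 and 26.1 in Brain Positive (0.63 ± 0.09, adjusted p = 0.000155). It was 11.3, 13.5 and 14.7 in Retina Input and 20.5, 20.0 and 23.2 in Retina Positive (0.69 ± 0.14, adjusted p = 0.0097). In Choroid it was 39.4, 31.4 and 27.4 in Input and 90.7, 63.6 and 53.3 in Positive (1.10 ± 0.30, adjusted p = 0.013). Positive lay above Input in the 3 tissues, and the Choroid call was lost without Choroid Input 3 (adjusted p = 0.0674) or Choroid Positive 1 (0.0822). The Retina call did not hold under every alternative either. Without library 1 of every group the Retina difference was 0.65 (adjusted p = 0.0732).

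Eif4e itself, the main cap-binding protein, was 103, 111 and 108 CPM in Brain Input against 109, 101 and 98.0 in Brain Positive, 111, 118 and 126 in Retina Input and 133, 131 and 120 in Retina Positive. In Choroid it was 72.9, 86.4 and 90.8 in Input and 104, 95.5 and 105 in Positive. It passed in no tissue. Eif4e2 was 66.2, 64.3 and 67.5 in Brain Input against 71.7, 71.8 and 77.8 in Brain Positive (0.16 ± 0.06, adjusted p = 0.0388), a call lost with upper quartile scaling and without Brain Input 2 or 3 or Brain Positive 3. It was 63.8, 67.6 and 68.4 against 68.5, 61.9 and 62.2 in Retina and 93.7, 72.1 and 65.2 against 91.1, 113 and 67.3 in Choroid, and passed in neither. Per kilobase, Eif4e stood above Eif4e2 and Eif4e3 in Brain Positive (20.0, 9.84 and 11.3 CPM), and Eif4e3 was the highest of the 3 in Choroid Positive (27.5, against 19.8 for Eif4e and 12.1 for Eif4e2).

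Among the scaffolds, Eif4g2 and Eif4g1 were higher in Brain Positive and Eif4g3 was level. Eif4g2, which lacks the eIF4E-binding end of the other scaffolds, was 556, 617 and 629 CPM in Brain Input against 1124, 1049 and 1108 in Brain Positive (0.86 ± 0.06, adjusted p = 8.2e-07). Eif4g1 was 301, 299 and 313 and then 469, 482 and 458 (0.62 ± 0.06, adjusted p = 3.14e-06). Eif4g3 was 293, 303 and 302 and then 286, 308 and 300 (adjusted p = 0.928).

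None of the 3 scaffolds passed outside Brain, and the groups overlapped there. Eif4g2 was 1023, 1217 and 1118 CPM in Retina Input, 1169, 1391 and 1178 in Retina Positive, 1097, 1103 and 1303 in Choroid Input and 1488, 1093 and 1339 in Choroid Positive. Eif4g1 was 237, 247 and 224, 249, 237 and 310, 426, 381 and 409, and 491, 266 and 377 in those 4 groups. Eif4g3 lay between 258 and 288 in Retina and between 215 and 297 in Choroid.

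The eIF4A helicases are Eif4a1 and Eif4a2. Eif4a2, the isoform abundant in brain, was 595, 647 and 641 CPM in Brain Input against 524, 465 and 472 in Brain Positive (-0.37 ± 0.07, adjusted p = 0.000539), with no overlap. Eif4a1 was 190, 200 and 199 and then 226, 209 and 200 (adjusted p = 0.148). Per kilobase, Eif4a2 made up 64.0% ± 0.42 of the pair in Brain Input and 56.1% ± 0.78 in Brain Positive, 53.3% ± 0.51 and 50.8% ± 1.2 in Retina, and 42.9% ± 4.2 and 45.0% ± 6.2 in Choroid. The exact permutation p was 0.1, the smallest possible, in Brain and Retina and 0.5 in Choroid. In Retina Eif4a1 was 184, 189 and 219 against 209, 245 and 218 and Eif4a2 378, 396 and 439 against 410, 446 and 391. In Choroid Eif4a1 was 260, 330 and 321 against 270, 267 and 337 and Eif4a2 402, 475 and 357 against 420, 490 and 376, and neither gene passed in these tissues.

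Eif4h, a second helicase cofactor, was 322, 341 and 346 CPM in Retina Input and 410, 445 and 426 in Retina Positive (0.35 ± 0.08, adjusted p = 0.0164). This call was lost without Retina Input 1 (adjusted p = 0.0847) or Retina Input 2 (0.0703). Eif4a3, the helicase of the exon junction complex, was 83.5, 87.8 and 67.2 in Choroid Input and 127, 156 and 124 in Choroid Positive (0.77 ± 0.23, adjusted p = 0.0186), and missed the threshold without Choroid Input 3 (0.0916). Choroid Eif4h (0.61, adjusted p = 0.0259) was lost without any 1 of Choroid Input 1, 2 and 3 and Choroid Positive 1 and 3 (0.0521 to 0.088). In Brain Eif4a3 was higher (0.68 ± 0.07, adjusted p = 6.19e-06) and Eif4h did not pass (0.14 ± 0.06, 0.0575).

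eIF4E-binding proteins. Eif4ebp1, which holds eIF4E away from the scaffolds until mTOR phosphorylates it, gave the largest difference among the members in Brain. It was 2.43, 1.72 and 2.25 CPM in Brain Input against 13.1, 14.1 and 15.1 in Brain Positive, 6.64-fold higher (log2 2.73 ± 0.16, adjusted p = 1.74e-07). Eif4ebp2 was 8.40, 9.70 and 10.2 in Brain Input against 18, 17.8 and 19.9 in Brain Positive (0.98 ± 0.11, adjusted p = 2.06e-05). Neither gene's groups overlapped. In Retina Eif4ebp2 was 33.7, 28.7 and 31.4 in Input and 30.8, 30.8 and 32.8 in Positive, with overlap (adjusted p = 0.945).

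Eif4ebp3 went the other way, at 8.98, 7.91 and 7.93 CPM in Brain Input against 5.75, 5.54 and 7.05 in Brain Positive (-0.43 ± 0.14, adjusted p = 0.0193) and 7.68, 6.90 and 7.83 in Retina Input and 5.02, 3.62 and 5.13 in Retina Positive (-0.69 ± 0.20, adjusted p = 0.0385). The groups did not overlap, but the calls were fragile. The Brain call was lost without Brain Input 1 or Brain Positive 1 or 2 (adjusted p from 0.0525 to 0.0744). The Retina call was lost without Retina Input 1, 2 or 3 or Retina Positive 1 or 2 (0.068 to 0.125), and the gene met the authors' minimum in Retina in Input only.

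**Figure D3:**
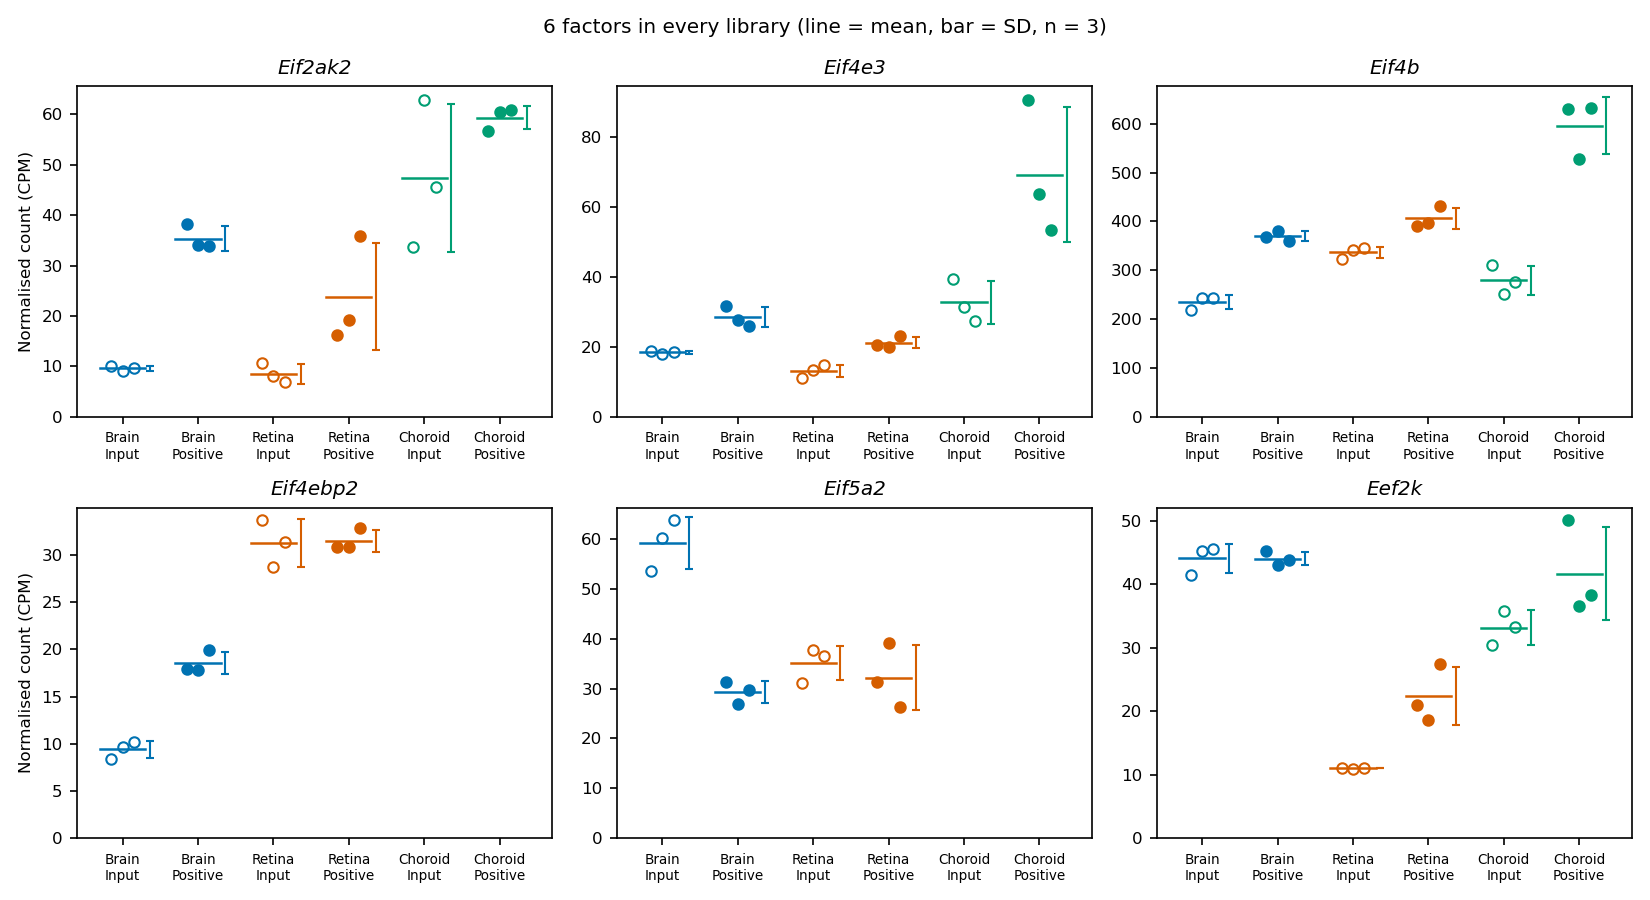
Normalised count (CPM) of Eif2ak2, Eif4e3, Eif4b, Eif4ebp2, Eif5a2 and Eef2k in every library (open, Input; filled, Positive; line, mean; bar, SD over 3 libraries). Eif4e3 and Eif4b are higher in Positive in the 3 tissues, Eef2k in Retina and Eif5a2 is lower in Brain; Eif4ebp2 and Eif5a2 were not listed in Choroid.

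Subunit joining, eIF5A and eIF6. In Brain 2 of 5 were higher (Eif5a and Eif6) and 2 lower (Eif5 and Eif5a2), near the 38.3% and 39.7% of all genes. None passed in Retina or Choroid. eIF5A helps the ribosome through stalls and at termination. Eif5a was 360, 334 and 325 CPM in Brain Input against 431, 419 and 404 in Brain Positive (0.30 ± 0.06, adjusted p = 0.00134), and Eif5a2 was 53.5, 60.0 and 63.8 and then 31.3, 26.9 and 29.8 (-1.01 ± 0.09, adjusted p = 2.83e-06). Neither pair of groups overlapped. Per kilobase, the Eif5a2 share of the pair was 7.62% ± 0.98 in Input and 3.21% ± 0.23 in Positive.

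In Retina Eif5a was 254, 270 and 280 CPM in Input and 281, 322 and 257 in Positive, and Eif5a2 was 31.2, 37.7 and 36.4 and then 31.2, 39.1 and 26.3, with overlap for both. In Choroid Eif5a was 270, 346 and 348 and then 320, 376 and 314. Eif5, the GTPase activator of eIF2, was 247, 269 and 273 in Brain Input against 207, 214 and 221 in Brain Positive (-0.30 ± 0.06, adjusted p = 0.00169).

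Elongation factors. In Brain 5 of 8 were higher and 2 were lower, beside 38.3% and 39.7% of all genes. In Retina 1 of 8 was higher and in Choroid 1 of 6, near the 15.3% and 16.3% of all genes. The pair Eef1a1 and Eef1a2 split in Brain. Eef1a1 was 1612, 1478 and 1451 CPM in Brain Input against 2839, 2625 and 2778 in Brain Positive (0.86 ± 0.06, adjusted p = 5.16e-07). Eef1a2 was 1678, 1591 and 1568 in Brain Input against 775, 702 and 752 in Brain Positive, 2.17-fold lower (log2 -1.12 ± 0.06, adjusted p = 7.6e-08). No values overlapped in either gene.

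Per kilobase of exon, Eef1a2 made up 47.9% ± 0.51 (SD, n = 3) of the Eef1a pair in Input and 18.9% ± 0.16 in Positive of Brain. Retina shares were 21.3% ± 0.46 and 17.5% ± 1.5, and those of Choroid 1.46% ± 0.66 and 0.536% ± 0.33. The exact permutation p was 0.1, the smallest that 3 against 3 allow, in Brain and Retina, and 0.2 in Choroid. The summed neuronal markers moved with it: 7862 to 8505 CPM in Brain Input and 3241 to 3684 in Brain Positive. Their part in the Eef1a2 difference was not tested.

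In Retina Eef1a1 was 1512, 1682 and 1828 CPM in Input and 1659, 2012 and 1918 in Positive, and Eef1a2 491, 524 and 564 and then 446, 509 and 422, with overlap for both genes (adjusted p = 0.392 and 0.202). In Choroid Eef1a1 was 4569, 4134 and 4300 in Input and 4979, 6376 and 6578 in Positive, without overlap (0.46 ± 0.25, adjusted p = 0.168). Choroid Eef1a2 was 84.9, 101 and 37.6 in Input and 38.0, 58.9 and 12.8 in Positive, with overlap (-1.09 ± 0.49, adjusted p = 0.105). It passed with the block (-1.15, adjusted p = 0.0079), without Choroid Positive 2 (-1.49, 0.0311) and without Choroid Input 3 (-1.39, 0.0483). In Choroid the gene met the authors' minimum in Input only, so these lower calls are not independent of that filter. The 4 neuronal markers listed in Choroid summed to 434, 260 and 171 CPM in Input and 89.2, 229 and 35.9 in Positive, and the 3 muscle markers to 102, 260 and 448 and then 32.9, 258 and 116. Their part was not tested.

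**Figure D4:**
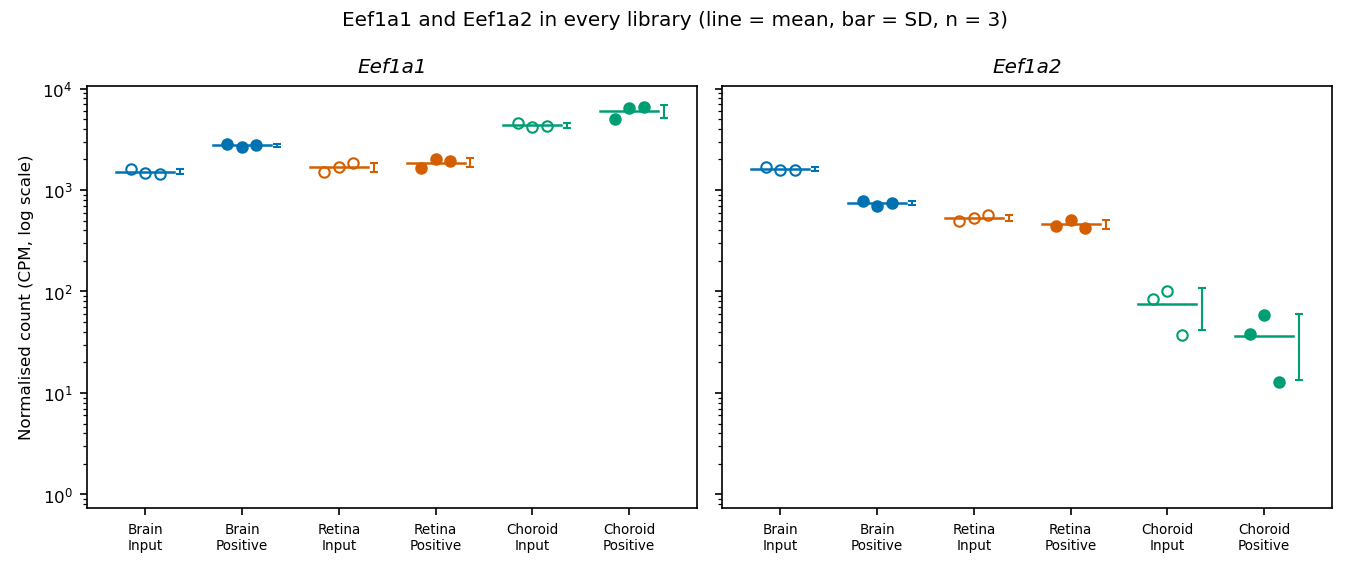
Normalised count (CPM, log axis) of Eef1a1 and Eef1a2 in every library (open, Input; filled, Positive; line, mean; bar, SD over 3 libraries). In Brain Eef1a1 is higher and Eef1a2 lower in Positive, and Choroid libraries hold 4134 CPM or more of Eef1a1 and 101 CPM or less of Eef1a2.

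The subunits that reload eEF1A moved with Eef1a1 in Brain: Eef1b2 (0.63 ± 0.09), Eef1g (0.46 ± 0.06) and Eef1d (0.40 ± 0.07) were higher, with adjusted p from 6.93e-05 to 0.000628. Eef1b2 was also higher in Retina, at 93.6, 94.7 and 103 CPM in Input and 116, 130 and 116 in Positive (0.31 ± 0.08, adjusted p = 0.0254), a call lost with upper quartile scaling (0.0748) and without Retina Input 1 or 2 or Retina Positive 2 (0.0642 to 0.113). Eef1e1, a scaffold of the multi-tRNA synthetase complex that carries the prefix by name, was 26.8, 26.1 and 28.6 in Brain Input against 21.2, 16.2 and 15.1 in Brain Positive (-0.64 ± 0.13, adjusted p = 0.000999).

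Eef2, the translocase, was 1315, 1282 and 1314 CPM in Brain Input against 1708, 1751 and 1768 in Brain Positive (0.42 ± 0.05, adjusted p = 2.32e-05). In Choroid it was 1843, 1403 and 1826 in Input and 2824, 2861 and 3219 in Positive (0.81 ± 0.22, adjusted p = 0.0131), and in Retina 1591, 1599 and 1667 and then 1553, 1633 and 1598 (adjusted p = 0.882). The groups overlapped in Retina only.

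Eef2k, the kinase that switches eEF2 off, showed another order of tissues. It was 11.1, 11 and 11.1 CPM in Retina Input and 21.0, 18.6 and 27.4 in Retina Positive (1.02 ± 0.16, adjusted p = 0.003), with the highest value in Retina Positive 3 and a difference of 0.85 (adjusted p = 0.000941) without that library. It was the 1 Retina call that held under every alternative in which it was tested. In Brain it was 41.5, 45.2 and 45.6 in Input and 45.2, 43.1 and 43.8 in Positive (adjusted p = 0.97), and in Choroid 30.4, 35.8 and 33.3 and then 50.1, 36.6 and 38.3 (adjusted p = 0.394).

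Summed over the 50 members listed in all 3 tables, the level was 11471 ± 180 CPM (SD, n = 3) in Brain Input and 14123 ± 267 in Brain Positive, 10803 ± 532 and 11455 ± 528 in Retina, and 14185 ± 391 and 18816 ± 925 in Choroid. Brain and Choroid groups did not overlap and Retina groups did. Eef1a1, Eef1a2 and Eef2 alone held 33.5% to 50.1% of this sum in every library.

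Other genes of the pathway were counted from 4 lists of 37 symbols, which were drawn up with earlier results of these data known. In Brain 18 of 37 were higher and 9 lower (median 0.17), beside 38.3% and 39.7% of all genes. In Retina 2 were higher and 2 lower of 37 (median 0.03), beside 15.3% and 10.8%, and in Choroid 1 and 2 of 29 listed (median 0.11), beside 16.3% and 20.2%. Of the mRNA-side partners, the poly(A)-binding protein gene Pabpc1 (0.61 ± 0.06) and its inhibitor Paip2 (0.51 ± 0.07) were higher in Brain. Mknk2, a kinase of eIF4E, was higher in Brain (1.62 ± 0.07, adjusted p = 2.56e-08), Retina (1.08 ± 0.19, 0.00476) and Choroid (1.49 ± 0.24, 0.000431). Mtor, the kinase upstream of the eIF4E-binding proteins, was lower in Brain (-1.36 ± 0.10, adjusted p = 5.96e-07), Retina (-0.60 ± 0.13, 0.0124) and Choroid (-1.09 ± 0.24, 0.00388).

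The next fits asked whether Positive over Input itself differed between tissues. Each used the 12 libraries of a pair of tissues and the genes listed in both tables, and a value is the log2 difference of the first tissue minus that of the second. Retina minus Brain was lower for 18 of 59 members and higher for 7, where 28.9% of all genes were higher and 20.0% lower. The largest negative values were Eif4ebp2 (-0.92 ± 0.14, adjusted p = 0.000269), Eif3f (-0.88 ± 0.10, 1.9e-05) and Eif2b5 (-0.69 ± 0.10, 0.000146), all near 0 or below it in Retina and higher in Brain. The largest positive values were Eef2k (1.07 ± 0.17, 0.000312), Eef1a2 (0.96 ± 0.12, 4.09e-05) and Eif5a2 (0.92 ± 0.19, 0.00152). Eef1a2 missed the threshold in a joint fit of all 18 libraries over the genes of all 3 tables (0.87, adjusted p = 0.121). That fit also drew on the Choroid libraries, so genes and libraries changed together. With the authors' factors 24 members were lower and 4 higher, and in the joint fit 13 were lower and 1 higher.

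Choroid minus Brain was higher for 11 of 50 members and lower for 1, where 22.4% of all genes were higher and 25.7% lower. These calls rest on how the libraries are scaled. With the authors' factors, under which each table was scaled by itself and the median of all shared genes was -0.43 instead of 0.03, 0 members were higher and 7 lower, and with upper quartile scaling (median -0.14) 6 were higher and 2 lower. The largest values, Eif3a (0.83 ± 0.29), Eif4e3 (0.80 ± 0.29) and Eif4h (0.80 ± 0.18), became 0.38, 0.37 and 0.34 with the authors' factors, with adjusted p from 0.217 to 0.369. Eif3a and Eif4e3 were also lost when 1 of 7 single libraries was left out: for both Brain Input 2 and 3, Brain Positive 2 and 3 and Choroid Positive 1, for Eif3a also Brain Positive 1 and Choroid Positive 3, and for Eif4e3 also Brain Input 1 and Choroid Input 3 (adjusted p from 0.0518 to 0.121). Eif2ak2 was lower in every alternative tested (-1.21 ± 0.27, adjusted p = 0.00222). This value is a difference of ratios and not of levels. The Eif2ak2 mean was 47.4 CPM in Choroid Input and 59.3 in Choroid Positive, against 9.64 in Brain Input and 35.4 in Brain Positive.

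Choroid minus Retina was higher for 8 of 50 members and lower for none by edgeR's test, where 9.49% of all genes were higher and 22.3% lower. At an unadjusted p under 0.05, 11 were higher and 1 lower. The DESeq2 Wald test gave 13 higher and 0 lower, and the authors' factors, with the median of all genes at -0.24, gave 4 higher and 0 lower. Shares of all genes matching these alternative counts are not given here. The largest values were Eef2 (0.91 ± 0.24, adjusted p = 0.0101), Eif4b (0.91 ± 0.20, 0.00294) and Eif1a (0.84 ± 0.22, 0.00899), which were still called with the authors' factors. Without library 1 of every group, Eef2 (adjusted p = 0.0781) and Eif1a (0.0759) were not called. Comparisons that share a tissue share its libraries.

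The Positive fractions were also set against each other over the genes of each pair of tables. These values compare levels across tables that were filtered separately, and the Positive fractions differed in marker RNA of other cells. The 8 photoreceptor markers listed in Retina summed to 30206 to 49744 CPM in Retina Positive, and the 6 listed in Choroid to 213 to 417 in Choroid Positive. Their part in these differences was not tested. Retina Positive was lower than Brain Positive for 22 of 59 members and higher for 8, where 34.1% of all genes were lower and 36.1% higher. The largest decreases were Eef1b2 (-1.15 ± 0.09, adjusted p = 1.82e-05), Eef1d (-1.03 ± 0.09, 3.2e-05) and Eef2k (-0.94 ± 0.14, 0.000463). The largest increases were Eef1e1 (1.03 ± 0.23, 0.00423), Eif4ebp2 (0.80 ± 0.10, 0.000203) and Eif2s3x (0.69 ± 0.22, 0.0225). Eif2s3x was higher in Retina Positive than in the same-numbered Brain Positive library for each number (137 against 99.1, 236 against 138 and 224 against 142), the groups overlapped because library 1 was low in both, and a fit across tissues with the number as a term was not run. Its call was lost without Brain Positive 1 (adjusted p = 0.0792) or Retina Positive 2 (0.0857).

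Choroid Positive was higher than Brain Positive for 11 of 50 members and lower for 4, where 25.8% of all genes were higher and 24.0% lower. Eif4e3 (1.34 ± 0.22, adjusted p = 0.00155), Eef1a1 (1.16 ± 0.16, 0.000574) and Eif3a (1.02 ± 0.13, 0.000312) were the highest, and Eef1a2 was 21.8-fold lower (-4.45 ± 0.40, 6.05e-05). Eif3i (-0.54 ± 0.15, 0.0185) and Eif1b (-0.48 ± 0.17, 0.0464) followed, and both missed the threshold without any 1 of Brain Positive 1, 2 and 3, Eif1b also without Choroid Positive 3 (adjusted p from 0.0637 to 0.169). The 15 calls became 9 without Brain Positive 2 or 3 and 24 without Choroid Positive 2. Eif2ak2 was among the 11 higher members and was called in every alternative tested.

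Choroid Positive was higher than Retina Positive for 15 of 50 members and lower for 2, where 27.3% of all genes were higher and 25.6% lower. Of the 6 elongation factors listed in both tables, 5 were higher (Eef1a1, Eef1b2, Eef1d, Eef1g and Eef2) and Eef1a2 was 14.2-fold lower (-3.83 ± 0.43, adjusted p = 0.000104). The largest increases were Eif4e3 (1.65 ± 0.25, 0.000555), Eef1a1 (1.61 ± 0.28, 0.00118) and Eef1b2 (1.52 ± 0.24, 0.00073). Eif1b was the other lower member (-0.79 ± 0.22, 0.0132), and its call was lost without Retina Positive 1 (0.0508) or Retina Positive 2 (0.0579). Without either of those 2 libraries 10 members were called in all.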

How the data were processed

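Input and Positive libraries of 3 tissues were read from 1 deposited table per tissue. The raw values are expected counts per gene as deposited by the authors (the column headers call them raw and many are fractional, so each is an estimated count). The deposited normalized values are log2 values computed by the authors, from which each library's factor was recovered. Genes below 50 raw counts in some sample of both fractions were left out by the authors, per the file headers. For the build the submitters' processing notes give mm10, and for software DESeq with no version. The aligner, the counting program, the use of strand and the treatment of reads shared between gene copies were not given in the sources used here. Values of genes with close copies, such as Eef1a1 and Eif1, are therefore uncertain. All columns were mapped to samples.

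Counts were rounded and fitted with edgeR 4.0.16 in R 4.3.3 (TMM, filterByExpr with a minimum count of 10, quasi-likelihood F test, Benjamini-Hochberg adjustment over all genes tested, threshold 0.05). DESeq2 1.42.0 gave an alternative test. A log2 difference has its SE, and levels are CPM. Exon lengths are from GENCODE for GRCm38. The fits were run on simulated counts with known changes, and the outcome is not given here. Those counts were drawn independently for each library, without pairs or an effect of library number, so they do not test the fits for either. By rule, values in every library are given for sets of related genes, and the 5 members called with the largest increase and decrease per tissue and the 3 per comparison between tissues are named. Members and lists were chosen with earlier results of these data known. Same-numbered Input and Positive libraries come from the same supernatant per the labels' protocols. The deviations of such pairs from their group means had correlations of 0.0014 to 0.281. Pairs of different number within a tissue had correlations of -0.323 to 0.180. Deviations cancel out within a group, so these correlations depend on one another. Alternatives were other scalings and filters, DESeq2, stricter thresholds, leaving out each library and the pair as a block. For comparisons between tissues, a joint fit of the 3 tissues over genes listed in every table was another. Leaving out library 1 of every group was added after seeing the data.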

Additional observations from a re-analysis of the deposited data

Results flagged for a closer look

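These members were singled out because the test of the difference between 2 tissues in Positive over Input (edgeR, interaction of tissue and fraction) passed, taking the 3 largest called values each way. For Retina minus Brain the log2 differences were 1.07 for Eef2k, 0.96 for Eef1a2 and 0.92 for Eif5a2 on the higher side, and -0.92 for Eif4ebp2, -0.88 for Eif3f and -0.69 for Eif2b5 on the lower side. For Choroid minus Brain they were 0.83 for Eif3a, 0.80 for Eif4e3 and 0.80 for Eif4h, and -1.21 for Eif2ak2, the 1 member called lower. For Choroid minus Retina they were 0.91 for Eef2, 0.91 for Eif4b and 0.84 for Eif1a, with no member called lower by edgeR or by DESeq2. Groups of 3 libraries were not searched for single outlying values.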

How the results depend on the processing

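Leaving out 1 library at a time gave, for members higher and lower, 31 to 35 and 5 to 7 in Brain, 3 to 8 and 0 to 1 in Retina, and 2 to 8 and 0 to 1 in Choroid. For members called between tissues the ranges were 21 to 29 (Retina minus Brain), 9 to 13 (Choroid minus Brain), 6 to 10 (Choroid minus Retina), 25 to 35 (Retina against Brain Positive), 9 to 24 (Choroid against Brain Positive) and 10 to 19 (Choroid against Retina Positive).

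Without library 1 of every group, an alternative chosen after seeing the data, 2 were higher and 0 lower in Retina, 2 higher in Choroid, 6 called in Choroid minus Brain, 3 in Choroid minus Retina and 7 in Choroid against Retina Positive. With the pair as a replicate block 13 were higher and 1 lower in Choroid, and in Retina Eif4b was lost and Eif3b gained. With the authors' factors 4 were higher in Choroid, 7 called in Choroid minus Brain and 4 in Choroid minus Retina. They were not run between Positive fractions, whose tables were normalized separately. Upper quartile scaling gave 5 higher in Choroid, and the DESeq2 Wald test gave 15 there and 13 in Choroid minus Retina. Shares of all genes are given for the main fits only. A filter at the median level left 0 lower in Retina and 2 higher in Choroid.

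Another alternative fitted the 3 tissues together over the genes listed in every table, so genes and libraries changed together. It called 14 in Retina minus Brain, 17 in Choroid minus Retina, 19 in Retina against Brain Positive and 26 in Choroid against Retina Positive. At adjusted p under 0.01, 2 were higher and 0 lower in Retina, 1 higher in Choroid, and 16, 6 and 3 were called in the differences between tissues and 9 in each comparison of Choroid Positive. At a log2 difference of at least 1, 2 were higher and 2 lower in Brain, 2 and 0 in Retina, 2 higher in Choroid, 1, 1 and 0 were called in the differences between tissues, and 3, 4 and 7 between Positive fractions. The cause of these changes was not tested. Choroid libraries held 713733 to 10031274 counts, and the part of depth was not tested.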

Other observations

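Of 9 factors that end translation and recycle ribosomes, 5 were higher and 3 lower in Brain Positive, where 38.3% of all genes were higher and 39.7% lower. Etf1, which recognises stop codons, was higher (log2 difference 0.57 ± 0.07, adjusted p = 2.12e-05), and of its GTPase partners Gspt1 was higher (0.19 ± 0.08, 0.0449) and Gspt2 lower (-0.47 ± 0.09, 0.000675). Pelo, which rescues stalled ribosomes, was higher (0.43 ± 0.10, 0.003), and Abce1, which splits the subunits apart, was lower (-0.23 ± 0.07, 0.014). The log2 differences of Etf1 were 0.14 in Retina and 0.05 in Choroid (adjusted p = 0.184 and 0.878).

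Among 9 translation factors of mitochondria, 3 were higher and 2 lower in Brain, beside 38.3% and 39.7% of all genes. The release factor gene Mtrf1l (0.76 ± 0.12, adjusted p = 0.000288) and the recycling factor gene Mrrf (0.67 ± 0.09, 5.2e-05) were higher. Gfm2 was lower in Brain (-0.46 ± 0.08, 0.000511) and in Retina (-0.33 ± 0.10, 0.0368). In the signalling list, Ppp1r15a, which targets a phosphatase to eIF2, was higher in Brain (1.02 ± 0.08, 1.39e-06), and Ddit3 was lower in Choroid (-1.68 ± 0.48, 0.0163).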
